A study of Homo sapiens with 32 samples.

Results

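Small nucleolar RNA host genes are genes whose introns carry small nucleolar RNAs (snoRNAs). They include protein-coding genes, but the members of this report are lncRNA genes. The members were the RefSeq genes with a symbol of SNHG followed by digits, together with GAS5, DANCR, EPB41L4A-AS1 and ZFAS1. This rule found 33 genes among 55907 RefSeq genes that are not small RNAs. Peaks of m6A (N6-methyladenosine, in which an adenosine of RNA carries a methyl group) were assigned to a member where the summit lay in its hg38 gene span. The 4 peak lists placed 38, 35, 36 and 34 peaks in members, which merged by strand into 51 loci of 66409 in all.

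The lists came from A375, an established human melanoma line, by antibody enrichment and sequencing (MeRIP-seq) of chromatin-associated RNA depleted of ribosomal RNA. Of the 32 samples in 16 groups, 2 libraries came from A375 carrying a control hairpin (shControl, genotype labelled WT) and 2 from A375 carrying a METTL3 hairpin (shMETTL3, labelled METTL3 knockdown). METTL3 is the subunit that transfers the methyl group in the main m6A writer complex. All 4 libraries were of 1 cell line, and the labels do not say whether replicates were separate cultures or whether the cells were clonal, so p-values measure only the spread between these libraries, which may be technical. The other samples of the series were not analysed here.

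The primary transcript of a host gene is spliced, and the snoRNA is trimmed out of the removed intron, where core proteins protect it. Box C/D snoRNAs guide ribose methylation and box H/ACA snoRNAs guide pseudouridylation of ribosomal RNA, and the related small Cajal body RNAs (scaRNAs) guide the same changes in spliceosomal RNA. Many host transcripts start with a run of pyrimidines, as ribosomal protein mRNAs do, and several are degraded in the cytoplasm by nonsense-mediated decay. A chromatin-associated RNA fraction holds nascent, partly unspliced transcripts, so introns as well as exons can carry peaks.

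The stretches around the starts of 4 members are shown because a peak reached into them. They are RefSeq sequences (GRCh38.p14) of 250 bases before to 50 bases after the annotated gene start. Capitals mark the bases covered by a peak in any list, and each sequence is printed 5′ to 3′ on the strand of that peak. SNHG5 lies on the minus strand and its window is chr6:85678684-85678983. GAS5 also lies on the minus strand, but its peak was on the plus strand, so the window chr1:173868996-173869295 is printed on the plus strand. SNHG21 is a plus-strand gene with the window chr15:82750314-82750613. SNHG16 is a plus-strand gene with a minus-strand peak, and its window chr17:76557514-76557813 is printed on the minus strand.
SNHG5: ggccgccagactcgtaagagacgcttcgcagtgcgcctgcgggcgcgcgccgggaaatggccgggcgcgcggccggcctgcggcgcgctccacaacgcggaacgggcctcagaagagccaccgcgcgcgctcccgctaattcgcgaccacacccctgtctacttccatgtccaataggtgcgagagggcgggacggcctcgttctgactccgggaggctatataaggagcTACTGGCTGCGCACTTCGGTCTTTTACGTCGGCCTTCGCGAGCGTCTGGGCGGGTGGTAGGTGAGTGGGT
GAS5: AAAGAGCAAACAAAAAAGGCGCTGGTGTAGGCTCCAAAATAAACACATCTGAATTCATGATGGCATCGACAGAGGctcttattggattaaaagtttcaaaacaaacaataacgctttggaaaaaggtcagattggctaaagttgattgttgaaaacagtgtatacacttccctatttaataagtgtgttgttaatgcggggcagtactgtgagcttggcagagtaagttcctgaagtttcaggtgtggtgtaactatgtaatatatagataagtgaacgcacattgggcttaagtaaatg
SNHG21: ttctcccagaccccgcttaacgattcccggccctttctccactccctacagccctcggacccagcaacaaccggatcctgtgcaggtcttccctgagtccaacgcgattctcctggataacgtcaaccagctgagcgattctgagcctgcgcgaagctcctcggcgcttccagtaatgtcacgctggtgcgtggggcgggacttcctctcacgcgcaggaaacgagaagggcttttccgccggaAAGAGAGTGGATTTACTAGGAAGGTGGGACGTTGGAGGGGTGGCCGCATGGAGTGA
SNHG16: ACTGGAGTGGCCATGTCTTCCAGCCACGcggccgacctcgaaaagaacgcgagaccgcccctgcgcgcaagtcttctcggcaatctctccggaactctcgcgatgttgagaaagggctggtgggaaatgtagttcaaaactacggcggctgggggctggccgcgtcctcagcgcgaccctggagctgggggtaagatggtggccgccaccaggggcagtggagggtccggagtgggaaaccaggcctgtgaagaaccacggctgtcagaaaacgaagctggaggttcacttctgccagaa
The SNHG5 window shows 70 covered bases, which hold the start of the gene itself, cttttacgtcgg, with its short pyrimidine run. In GAS5 75 bases were covered, in SNHG21 56 and in SNHG16 28, the last pair each in a single list. A run of at least 5 C or T starting at base 1, 2 or 3 of the gene was present in 11 of the 29 members with a promoter entry (37.9%), among them SNHG12 (cctttctccccg), SNHG32 (ctttttgcgaag) and ZFAS1 (ctttcgcgtctg). Of all 27305 promoter windows 12.7% had such a run. The letters GGACT, a frequent m6A sequence context, were in 5 of the 29 windows on the gene strand (17.2%, against 25.1% of all windows) and in 13 on either strand (44.8%, against 44.2%). These matches describe the windows and mark no site.

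Most host genes carried no peak. Of the 33 members, 23 had none in any list, among them SNHG1, which holds 8 snoRNA genes, SNHG12 with 4, and SNHG3, SNHG4, SNHG7, SNHG11, SNHG32 and SNHG33 with 2 each. DANCR, which hosts SNORA26, EPB41L4A-AS1, which hosts SNORA13, SNHG8, SNHG10, SNHG15, SNHG18, SNHG19, SNHG25 and SNHG26 also had none. The remaining members without a peak were SNHG6, SNHG9, SNHG22, SNHG27, SNHG28 and SNHG31, and of these SNHG27 and SNHG28 hold no annotated snoRNA gene. A peak was present in at least 1 list in 10 members (30.3%) and in every list in 7 (21.2%). Over all genes that are not small RNAs the shares were 25.1% and 17.4%, and over lncRNA genes 13.0% and 7.11%. The 25 other lncRNA genes that hold a snoRNA gene had higher shares than the members, with a peak in at least 1 list in 14 (56.0%) and in every list in 11 (44.0%). Their median length was 17015 bp, against 5145 bp in the members. Members with a peak had a median length of 7114 bp and those without one 4268 bp. The longest member, SNHG14 with 595855 bp, held most of the peaks, but SNHG31 with 153377 bp held none. Low methylation, low RNA level and low read depth cannot be told apart where a gene has no peak.

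Of 255 protein-coding genes that host snoRNAs, 204 (80.0%) had a peak in at least 1 list and 169 (66.3%) in every list, at a median length of 45939 bp. All protein-coding genes had shares of 53.5% and 39.7% at a median length of 24092.5 bp. Gene length and RNA level were not matched, and no test was made of these shares.

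Peaks were also placed by strand. The reference gave a strand for 29 members, and over all peaks with a summit in 1 gene of known strand, 96.5% of 118145 lay on the strand of that gene. Of the 51 member loci, 35 were on the strand of the host gene and 16 on the opposite strand. Summits of 24 loci also lay in a protein-coding gene. On the host strand and outside coding genes there were 24 loci, 8 of them in all 4 lists. A host-strand peak was present in at least 1 list in 9 members and in every list in 6. Without loci in another gene, on either strand, 7 members had a peak in at least 1 list and 5 in every list.

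**Figure D1:**
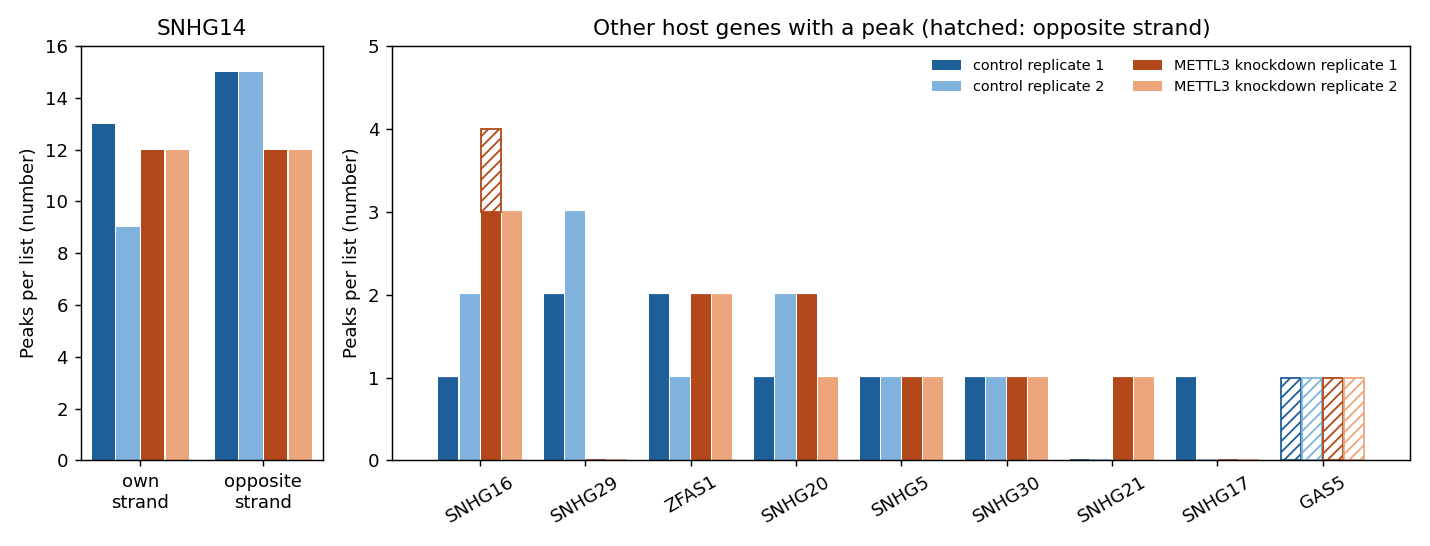
Number of peaks per list (vertical axis) in SNHG14 (left, split by strand) and in the 9 other host genes with a peak (right). Each bar is 1 library, solid for the strand of the gene and hatched for the opposite strand. GAS5 had only opposite-strand peaks, and SNHG29 had 2 and 3 peaks in the control lists and none in the knockdown lists.

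The comparison of the groups asked which peaks depend on METTL3. METTL3 itself carried 5 peaks on its own strand in each of the 4 lists, which does not measure its RNA level. In number of peaks, the host genes did not differ beyond the spread between replicates, with a mean of 36.5 ± 2.12 (SD, n = 2) in control and 35 ± 1.41 (SD, n = 2) in knockdown. The two-sided exact permutation p was 0.667, where 2 against 2 libraries cannot go below 0.333. On the host strand the means were 20.5 ± 2.12 and 21.5 ± 0.707 (SD, n = 2 each; exact permutation p = 1). Outside SNHG14 they were 10.5 ± 0.707 and 11 ± 1.41 (SD, n = 2 each; exact permutation p = 1). Fewer transcripts and less methylation per transcript cannot be told apart in any of these counts.

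Most loci shared by both lists of a group also had a peak in the other group. Of the 51 member loci, 16 were in 1 list only, a share that was not counted over all loci. Among the 28 member loci shared by the control lists, 4 lacked a knockdown peak (14.3%, Wilson 95% interval 5.70% to 31.5%), against 22.6% over all loci. These control-only loci were 2 in SNHG29 and 2 in SNHG14. Among the 28 shared by the knockdown lists, 3 lacked a control peak (10.7%, 3.71% to 27.2%), against 18.9% over all loci. These knockdown-only loci were 1 in SNHG16 and 2 in SNHG14. In all 4 lists there were 21 loci (41.2%, 28.8% to 54.8%), against 35.7% of all loci. The intervals cover counting error only. The interval of each of these shares includes the share over all loci. With single lists left out, control-only loci numbered 9 without control replicate 1 and 8 without control replicate 2. They numbered 7 without knockdown replicate 1 and 4 without knockdown replicate 2. Knockdown-only loci numbered 6 without control replicate 1 and 4 without control replicate 2. They numbered 6 without knockdown replicate 1 and 8 without knockdown replicate 2. Such rises follow in part from construction, since 1 list then stands for a group. The shares over all loci were not computed in these settings.

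Fold enrichment is the authors' value of the peak caller for each peak and was ranked within its own list. For single loci named below, even folds without overlap cannot go below an exact two-sided permutation p of 0.333. How many of all loci have folds without overlap was not counted. The median fold of member peaks was below that of its list in all 4 lists, at 3.20 against 3.84 in control replicate 1, 3.41 against 3.65 in control replicate 2, 3.85 against 3.92 in knockdown replicate 1 and 3.79 against 3.93 in knockdown replicate 2. As percentiles of the list these medians were 30.6 and 42.4 in control and 48.0 and 46.2 in knockdown. The control and knockdown values did not overlap (exact two-sided permutation p = 0.333, the smallest possible). The sign of the difference between group means turned in 3 other settings, against 10.6 percentile points with all member peaks. Knockdown minus control was −3.86 points with peaks on the gene strand only and −5.11 without loci in another gene. In both of these settings the groups overlapped (exact permutation p = 0.667 each). With a −log10 q of at least 20 it was −3.06 points (exact permutation p = 0.333).

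SNHG29 had peaks in both control lists and in neither knockdown list. It hosts SNORD49A, SNORD49B and SNORD65 near its 5′ end. It is also listed as LRRC75A-AS1 and overlaps the coding gene LRRC75A, which covers all 3 of its loci. The locus chr17:16448529-16449007 had folds of 6.44 and 3.88 in control replicates 1 and 2, and the locus chr17:16449109-16449281 had 4.18 and 4.79. Neither was in a knockdown list. Both lay on the plus strand, the strand of SNHG29, with summits 9675 and 10193 bp from the gene start and 7364 and 7882 bp from SNORD65, the nearest snoRNA gene. Within their control lists the folds stood between the 56.9th and the 89.6th percentile, so the loci were not among the weakest peaks. A further locus, chr17:16453593-16453896, was in control replicate 2 alone, with a fold of 3.66. On the same strand, 675 bp beyond the annotated end of SNHG29, the locus chr17:16471038-16471463 was also found in both control lists (folds of 4.08 and 3.87) and in no knockdown list. No minus-strand peak was found in LRRC75A in any list, inside or outside SNHG29, and the reference used here gives no strand for LRRC75A.

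**Figure D2:**
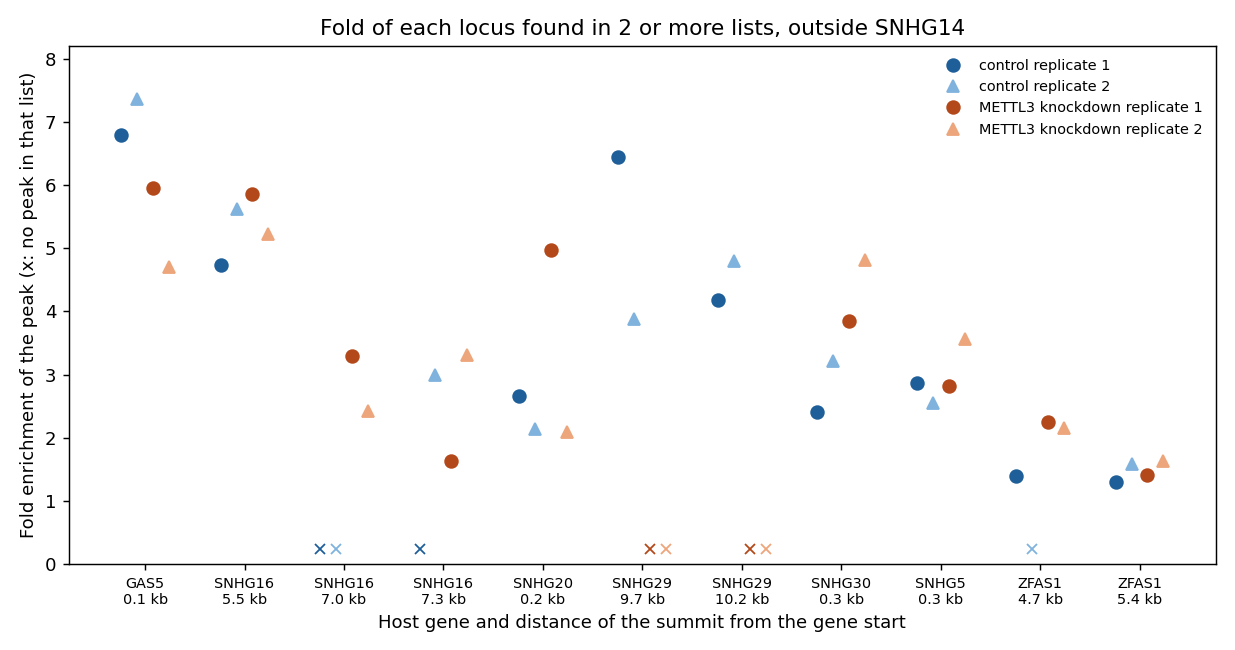
Fold enrichment (vertical axis) of the 11 loci outside SNHG14 that were found in at least 2 lists. Each point is the peak of 1 library, and a cross near 0 marks a list without a peak there. Both SNHG29 loci lack knockdown peaks, the SNHG16 locus at 7.0 kb lacks control peaks, and the ZFAS1 folds lie between 1.31 and 2.26.

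SNHG16 hosts SNORD1A, SNORD1B and SNORD1C, and no coding gene overlaps it. Of the 5 host-strand loci found in all 4 lists outside SNHG14, its locus had the highest fold in each list. At chr17:76563011-76563664 the folds were 4.74 and 5.61 in control replicates 1 and 2 and 5.86 and 5.22 in knockdown replicates 1 and 2. The values of the groups overlapped. The −log10 q of these peaks was 104 and 142 in control and 197 and 196 in knockdown, an order that was not tested. Its summit lay 5517 bp from the gene start, 1575 bp beyond SNORD1A, the last of the snoRNA genes.

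Closer to the end of SNHG16 the lists differed. The locus chr17:76564446-76564845, 619 bp from the gene end, was knockdown-only, with folds of 3.30 and 2.42, which were at the 31.8th and 9.85th percentiles of their lists. The last locus, chr17:76564991-76565320, with its summit 284 bp from the end, was missing from control replicate 1 and had folds of 2.997 in control replicate 2 and 1.64 and 3.31 in knockdown. On the opposite strand, 119 bp inside the gene start, knockdown replicate 1 alone had a peak with a fold of 5.71.

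ZFAS1, which hosts SNORD12, SNORD12B and SNORD12C and is named as the antisense RNA of ZNFX1, had the weakest folds of all members with a locus in every list. At chr20:49283385-49283680 they were 1.31 and 1.59 in control and 1.41 and 1.63 in knockdown, all below the 1st percentile of their lists. The locus chr20:49282363-49283174 had folds of 1.40 in control replicate 1 and 2.26 and 2.16 in knockdown, and no peak in control replicate 2. These folds were at or below the 6.84th percentile of their lists. In knockdown this locus had −log10 q values of 64.0 and 57.3, against 6.56 in control replicate 1. The q-values were not ranked within their lists, the read depth is unknown, and the difference was not tested. The merged locus was 812 bp wide, and the peak of control replicate 1 covered the smaller stretch 49282651 to 49282867.

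In SNHG5 and SNHG30 the peak was at the 5′ end. SNHG5, which hosts SNORD50A and SNORD50B and is the shortest member with a peak at 1727 bp, had the locus chr6:85678291-85678753 on its own strand. The folds were 2.87 and 2.55 in control and 2.82 and 3.56 in knockdown, and the groups overlapped. The summits of the 4 lists lay 316 to 324 bp from the gene start, within 8 bp of each other. The peaks began 4 to 20 bp before the annotated start, shown in capitals in the sequence above, and ended before both snoRNA genes, with 751 bp from the summit to SNORD50B.

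SNHG30, the host of SNORD7, had the locus chr17:35568184-35568704 with folds of 2.41 and 3.22 in control and 3.85 and 4.81 in knockdown. These were at percentiles 9.77 and 36.1 of the control lists and 47.7 and 68.7 of the knockdown lists. The groups did not overlap, which was not tested. Its outline was nearly the same in every list, from 70 to 79 bp to 573 to 590 bp inside the gene. The summits differed by group: they lay 553 and 565 bp from the start in control and 304 bp from it in both knockdown lists. The difference in summit position was noticed in the data and not tested.

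SNHG20, the host of SCARNA16, had 1 locus in all 4 lists, chr17:77088728-77089177, with folds of 2.66 and 2.14 in control and 4.97 and 2.096 in knockdown. Knockdown replicate 1 was high and the other 3 libraries lay between 2.096 and 2.66. SEC14L1, a coding gene of the same strand, starts within SNHG20 and covers the locus, so the transcript that carried the peak cannot be told. The single peaks at 1966 bp in knockdown replicate 1 and at 3760 bp in control replicate 2 also lay in SEC14L1. Beyond SNHG20, SEC14L1 had 3 and 2 peaks on its strand in the knockdown lists and none in the control lists. This was not tested, and the share of genes with such a pattern was not counted. Over all loci in both knockdown lists, 18.9% were knockdown-only.

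In GAS5, the host of 11 snoRNA genes and a transcript known for accumulating in growth arrest, every peak was on the opposite strand. The locus chr1:173868788-173869070 had folds of 6.79 and 7.37 in control and 5.95 and 4.70 in knockdown, at percentiles 91.6, 95.6, 82.9 and 66.8 of the lists. The control values were the higher ones in both forms, which was not tested. It crosses the GAS5 start, but it lies on the strand of ZBTB37, a zinc finger gene that starts inside the GAS5 span, overlaps it for 964 bp and had 7, 6, 6 and 5 further plus-strand peaks beyond it. The minus strand of GAS5 had no peak in any list.

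SNHG17 and SNHG21 had peaks in single lists only. SNHG17, the host of SNORA71A to SNORA71D, had a peak 140 bp from its end in control replicate 1, with a fold of 2.06. SNHG21, the host of SCARNA15, had a peak at its start in knockdown replicate 1 with a fold of 2.02 and a peak 4076 bp inside the gene in knockdown replicate 2 with a fold of 3.83.

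**Figure D3:**
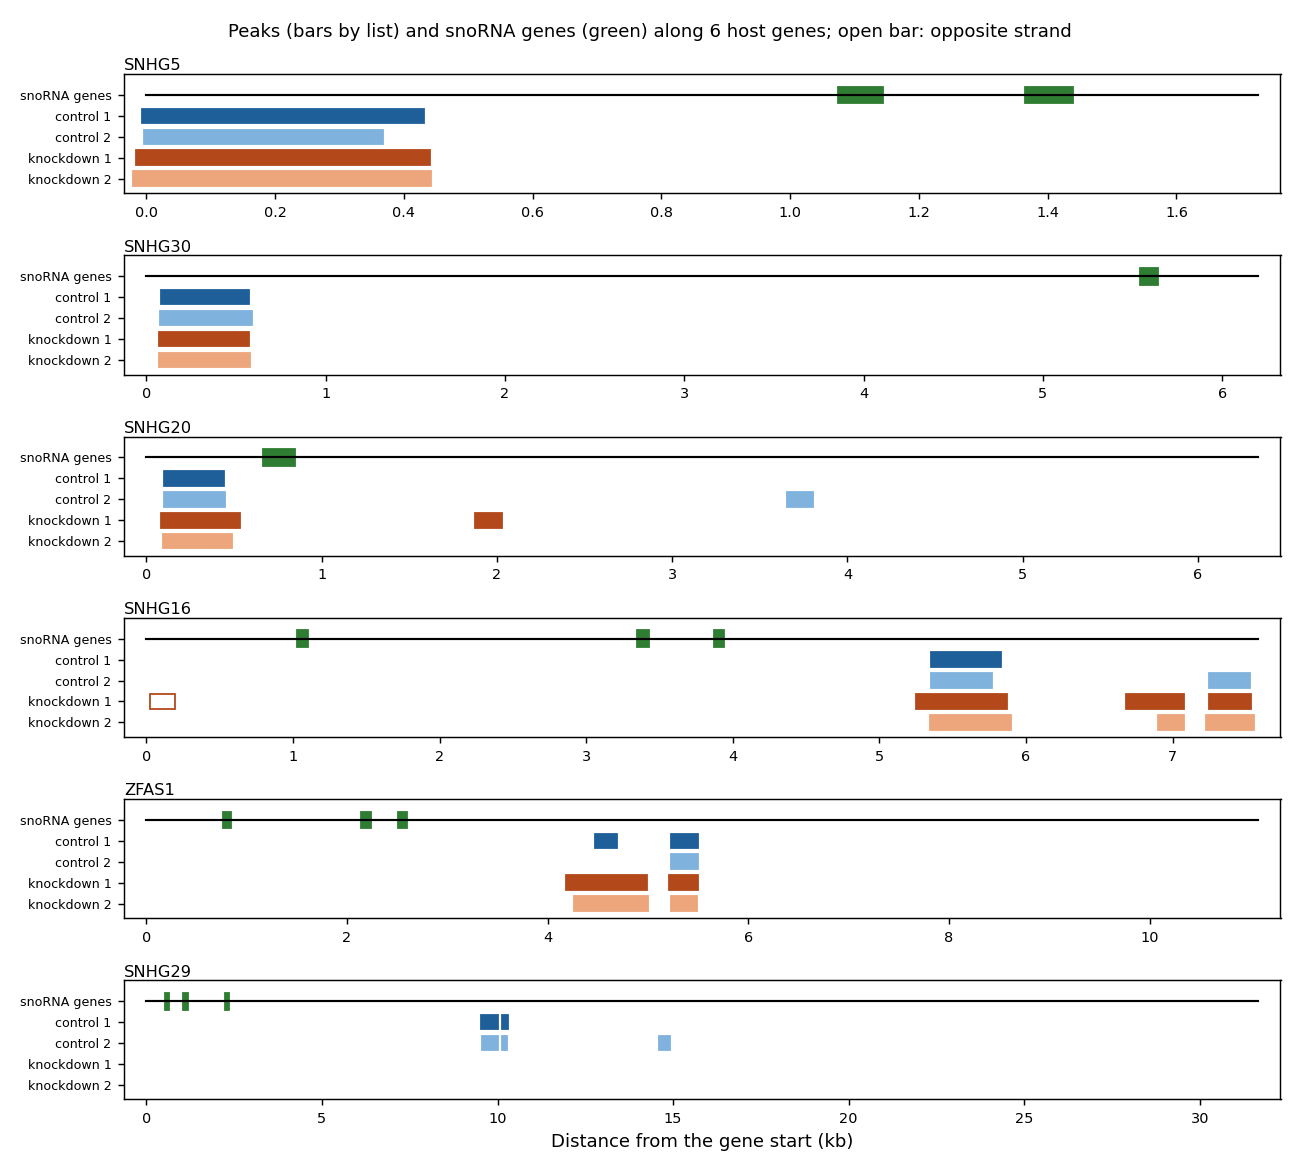
Position of peaks along 6 host genes, as distance from the gene start in kb on the horizontal axis of each panel. Coloured bars are the peaks of each list, open bars are on the opposite strand, and green boxes are snoRNA genes. The peaks of SNHG5 and SNHG30 and the 4 aligned peaks of SNHG20 are at the 5′ end, and the host-strand peaks of SNHG16, ZFAS1 and SNHG29 lie beyond the last snoRNA gene.

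Peaks seldom overlapped the snoRNA genes themselves. The members hold 149 snoRNA and scaRNA genes. SNHG14 alone holds 83 of these, with 30 in its SNORD116 array and 48 in its SNORD115 array. Of the 149 genes, 1 was overlapped by a peak in any list. That was SNORD108 in SNHG14, in control replicate 1 alone (95% Wilson interval 0.119% to 3.70%). Of 419 snoRNA genes outside the members, 18 were overlapped (4.30%). No summit of a member peak lay inside a snoRNA gene. For each of the 35 host-strand loci, distance was taken from the summit of its strongest peak to the nearest snoRNA gene of the host. The median was 4443 bp, and outside SNHG14 the shortest was 498 bp, from the SNHG20 locus to SCARNA16. That SNHG20 summit, of knockdown replicate 1, lay 166 bp from the gene start. The summits of the other lists lay at 305, 433 and 437 bp, closer to SCARNA16, which begins at 664 bp. Mature snoRNAs are short and many copies are near identical, and the sources used here do not give how reads with several possible positions were treated. Its part in these counts was not tested.

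SNHG14 held the largest number of peaks. It is the long transcript of the imprinted Prader-Willi and Angelman region, expressed from the paternal chromosome. It shares its 5′ part with SNRPN and SNURF, runs through the SNORD116 and SNORD115 arrays and, mainly in neurons, continues antisense to UBE3A. Its 33 loci were 19 on its own strand and 14 on the opposite strand. Own-strand peaks numbered 13 and 9 in control and 12 and 12 in knockdown, and opposite-strand peaks 15 and 15 in control and 12 and 12 in knockdown. The opposite-strand groups did not overlap, and the exact permutation p was 0.333, the smallest possible. The whole lists did not overlap either and had the same order. They held 45345 and 47692 peaks in control and 44108 and 42969 in knockdown (exact permutation p = 0.333).

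The own-strand loci lay mostly before the snoRNA arrays. Between the gene start and the end of SNRPN, 155116 bp long, there were 5 loci, and between that end and the SNORD116 array, 72752 bp long, there were 11. The SNORD116 array with 30 snoRNA genes and the SNORD115 array with 48 had no peak on either strand in any list. Between the arrays, where the lncRNA IPW lies, there were 3 loci, and beyond the SNORD115 array none on this strand. The arrays are repeats of similar copies, and whether reads could be placed in them was not tested.

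The own-strand locus with the highest fold in 3 of the 4 lists, chr15:24988309-24988814, had folds of 8.56 and 7.69 in control and 7.11 and 8.29 in knockdown, at or above the 91.0th percentile of every list. It lay 1528 bp beyond SNORD108 and in no other annotated gene. The groups overlapped. The neighbouring locus chr15:24989251-24991270, 2020 bp wide, had folds of 5.76 and 4.86 in control and 6.07 and 4.39 in knockdown. At chr15:24997866-24998552 the folds were 4.47 and 3.49 in control and 6.66 and 6.26 in knockdown, at percentiles 65.4, 45.1, 88.5 and 85.5. Both knockdown values were above both control values there, which was not tested. At chr15:25001291-25001865 the folds were 4.75, 4.09, 5.27 and 11.2 in the same order, with knockdown replicate 2 standing apart. The locus at the SNURF start, chr15:24954941-24955102, had similar folds of 3.94, 4.13, 4.26 and 3.83, and the next locus, chr15:24961999-24962288, had 3.13, 3.07, 2.46 and 3.42. Transcripts of SNRPN, SNURF and SNHG14 share this strand and cannot be told apart here.

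On its own strand SNHG14 had 1 control-only and 2 knockdown-only loci. The control-only locus, chr15:25016085-25016347, had folds of 1.71 and 2.01, at the 0.847th and 4.30th percentiles. The knockdown-only loci chr15:24994399-24994615 and chr15:25119099-25119344, the latter in IPW, had folds of 2.49 and 1.92, and of 2.75 and 3.12. The own-strand locus just before the SNORD116 array, chr15:25050761-25051026, was missing from control replicate 2 and had folds of 1.94 in control replicate 1 and 3.04 and 3.17 in knockdown.

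Of the 14 opposite-strand loci of SNHG14, 12 lay in UBE3A, a ubiquitin ligase gene read from the minus strand, and 2 between the SNORD115 array and UBE3A. Of the 12 loci in UBE3A, 9 were in all 4 lists. No plus-strand peak, the strand of the antisense transcript, was found there in any list. The locus with the highest fold in 3 of the 4 lists was chr15:25360456-25360626, with folds of 6.53 and 6.48 in control and 8.78 and 7.50 in knockdown. The knockdown values were above the control values, at percentiles 96.5 and 92.6 against 90.1 and 92.0. A further locus, chr15:25402480-25403231, had folds of 2.49 and 1.90 in control and 5.77 and 3.84 in knockdown, again without overlap. The same order, control first, was found at chr15:25369762-25370037 (2.50 and 3.41 against 4.04 and 3.47) and chr15:25370215-25371934 (3.26 and 3.50 against 3.86 and 4.09). It was also found at chr15:25398948-25399696 (3.01 and 2.62 against 3.75 and 4.89) and, narrowly, at chr15:25356784-25356960 (3.872 and 3.61 against 4.12 and 3.878). As percentiles of their lists, the groups overlapped at chr15:25369762-25370037 (11.5 and 42.4 in control against 52.9 and 36.9 in knockdown). They also overlapped in that form at chr15:25356784-25356960 (50.9 and 48.8 against 55.1 and 48.6). At the other loci named with this order, it held as percentiles too. These orders were not tested, and the share of all loci with such an order was not counted. The opposite order was found at chr15:25413659-25414143, with folds of 4.64 and 4.59 in control, 2.47 in knockdown replicate 1 and no peak in knockdown replicate 2. At chr15:25400586-25402263 the groups overlapped, with folds of 4.74 and 7.64 in control and 7.15 and 7.01 in knockdown. They also overlapped at chr15:25339090-25339335 (3.78 and 4.94 against 4.68 and 4.29) and chr15:25404644-25404973 (3.11 and 2.21 against 2.70 and 3.76). The locus chr15:25375514-25375869 had folds of 3.26 and 3.31 in control, 4.33 in knockdown replicate 1 and no peak in knockdown replicate 2. Both loci outside UBE3A lay beyond its annotated end and in no other annotated gene. The locus chr15:25331841-25332107 was control-only, with folds of 3.69 and 3.06 at the 45.9th and 31.0th percentiles, and chr15:25332301-25332494 was in control replicate 2 alone, with a fold of 3.78.

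**Figure D4:**
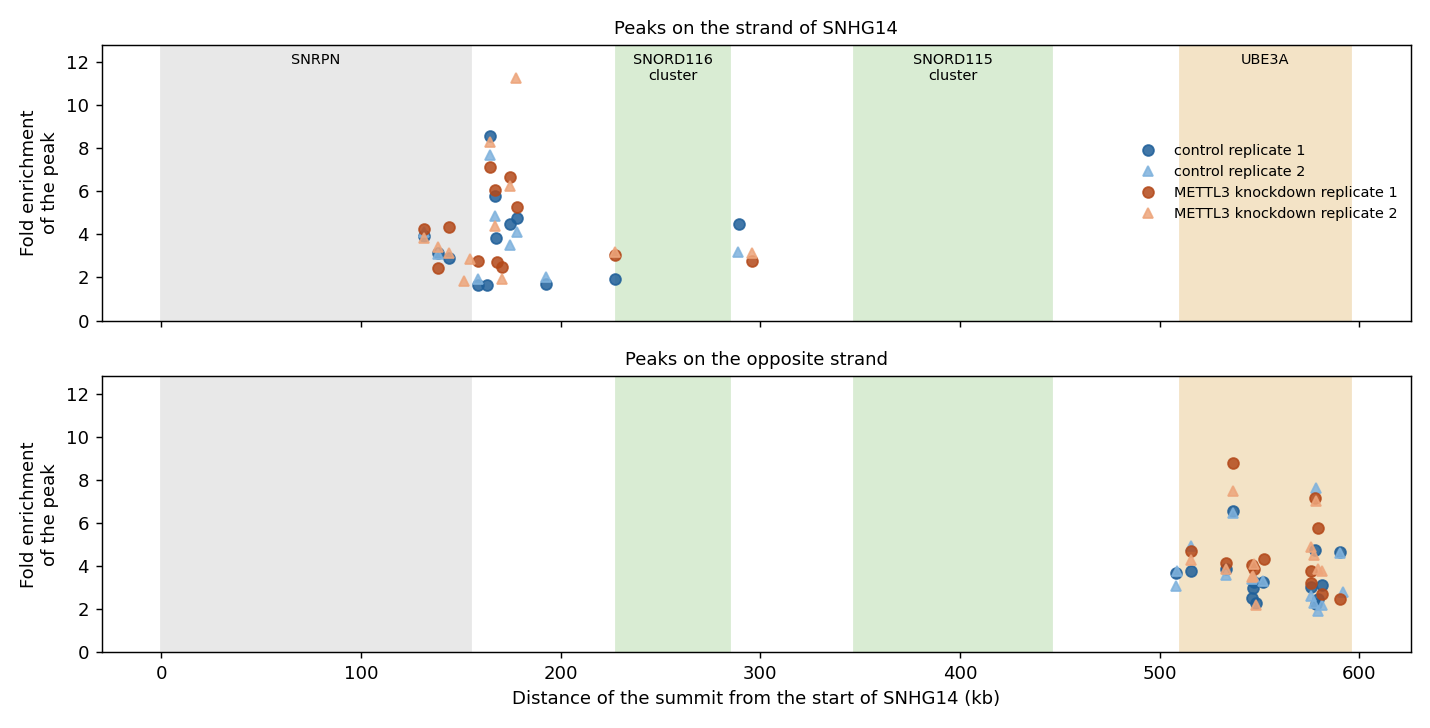
Fold enrichment (vertical axis) of SNHG14 peaks against the distance of the summit from the gene start in kb (horizontal axis), with own-strand peaks above and opposite-strand peaks below. Points are peaks of single libraries, and shading marks SNRPN, the SNORD116 and SNORD115 arrays and the UBE3A part. Own-strand peaks crowd between SNRPN and the SNORD116 array, both arrays are empty, and the opposite-strand peaks lie in or beside UBE3A.

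Genes for the proteins that make and handle snoRNAs and host transcripts mostly had peaks. Lists of these genes were counted on the strand of each gene. Of 18 genes for snoRNP core and assembly proteins, 17 had a peak in at least 1 list and 14 in every list. Their loci were 56 in both control lists, of which 11 were control-only, and 47 in both knockdown lists, of which 10 were knockdown-only. Over all features, 53.5% of protein-coding genes had a peak in at least 1 list and 39.7% in every list, 22.6% of loci in both control lists were control-only and 18.9% of loci in both knockdown lists were knockdown-only. DKC1, the pseudouridine synthase of box H/ACA particles, had 4 loci, all in the 4 lists. FBL, the methyltransferase of box C/D particles, had 2 peaks in each control list and 1 and 0 in the knockdown lists. TCOF1, a nucleolar protein gene, had loci of each kind: folds were 5.31 and 6.02 in control and 7.26 and 7.78 in knockdown at chr5:150398878-150399050, 5.59 and 5.27 at a control-only locus and 7.30 and 7.72 at a knockdown-only locus. NAF1, an assembly factor of box H/ACA particles, had 2 knockdown-only loci and no control-only locus.

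All 15 genes of nonsense-mediated decay had a peak in every list. Of their 87 loci in both control lists 10 were control-only, and of 70 in both knockdown lists 5 were knockdown-only, where the shares over all loci were 22.6% and 18.9%. UPF1, the central helicase of the pathway, had 3 control-only loci, the strongest with folds of 7.78 and 6.56. UPF2 had 8 loci in all 4 lists, the strongest with folds of 10.7, 10.5, 7.36 and 10.4. Genes for intron debranching and snoRNA trimming numbered 11. All had a peak in at least 1 list and 9 in every list, against 53.5% and 39.7% of protein-coding genes. The counts for the 11 genes were 7 control-only of 31 loci, a share near the 22.6% over all loci. Knockdown-only loci were 3 of 26, against 18.9% over all loci. DBR1, the lariat debranching enzyme, had 1 locus, found in all 4 lists, and DIS3, an exosome nuclease, had 2 control-only loci. CWF19L1, whose product is related to a debranching factor, had a single locus, which was control-only. No test was made of these lists.

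Markers of the melanocyte lineage had peaks in 3 of 10 genes (MITF, PAX3 and EDNRB), while SOX10, PMEL, MLANA, TYR, TYRP1, DCT and S100B had none. Among markers of other cell types, KRT10 of 8 keratinocyte genes, PDGFRB and LUM of 8 fibroblast genes and CD68 of 8 leukocyte genes had a peak. Presence of a peak does not measure the level of an RNA.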

How the data were processed

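MeRIP-seq libraries of chromatin-associated A375 RNA were represented by 1 peak list each, and the 4 shControl and shMETTL3 lists held 45345, 47692, 44108 and 42969 peaks. Per the labels' protocols, a methylated spike-in RNA was added before fragmentation and libraries were made with a stranded kit. Per the submitters' processing notes, the build was hg38 and the tools were MACS2 2.2.7.1, HISAT2 2.1.0, Bowtie2 2.4.2, SAMtools and Trim Galore 0.6.6, without roles or order. The sources used here do not say how input and spike-in entered. The deposited peak names show that strands were called separately, and they write koMETTL3 where the labels give a knockdown. The deposited fold is a ratio per peak, the p-value and q-value are deposited as −log10 values, and the deposited score, a rescaled −log10 q, was left aside. The smallest −log10 q was 2.00. The read depth is unknown, so no limit from depth can be given.

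Peaks sharing at least 1 bp on a strand were merged into loci. Genes, spans and strands came from RefSeq tables (GRCh38.p14, the assembly hg38 names), and snoRNA genes were those with symbols starting SNORA, SNORD or SCARNA. A locus was control-only if each control list and no knockdown list had a peak there, and knockdown-only in the reverse case. Distances use the strongest peak of a locus by percentile. Library values were compared by exact two-sided permutation of 2 against 2. Merging and classes were tested on simulated lists. Python 3.11.15, pandas 2.3.3 and scipy 1.17.1 were used. Members and gene lists were chosen with earlier results of these data known. Every member with a locus in 2 or more lists was to be named with its folds. From the other lists, up to 2 genes per class were to be named by their lowest fold percentile, and other names in them, the locus beyond SNHG29 and the SNHG30 summits were chosen after values were seen.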

Additional observations from a re-analysis of the deposited data

How the results depend on the processing

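Counts of group-specific loci were small and moved with the settings. Control-only loci, 4 as reported, were 2 with a −log10 q of at least 20, with a fold of at least 4, without loci in another gene and without SNHG14. Leaving out 1 list gave 4 to 9. Knockdown-only loci, 3 as reported, were 0 with a fold of at least 4, 5 with lists of equal length and 1 without SNHG14, and 4 to 8 with 1 list left out. Those rises follow in part from construction, since 1 list then stands for a group. Loci in every list, 21 as reported, were 13 with the stricter q, 7 with the fold of at least 4, 11 on the gene strand, 8 without loci in another gene and 6 without SNHG14, and 21 to 24 with 1 list left out. Members with a peak in every list fell from 7 to 4 with the stricter q and to 3 with the stricter fold, where 6 members had any peak and 2 own-strand loci, instead of 4, lay within 1000 bp of the gene start. The difference in member peaks, −1.5 for knockdown minus control, reversed to 2.5 with the stricter q, 3.5 with the stricter fold and with lists of equal length, 1 on the gene strand and without loci in another gene, and 0.5 without SNHG14, and was −3 to 0 with 1 list left out. The difference in median percentile, 10.6 points, reversed to −3.06 with the stricter q, −3.86 on the gene strand and −5.11 without loci in another gene, and was 4.66 to 16.5 with 1 list left out. For both reversals the cause was not tested. With replicate numbers as a block, the paired differences were −1.5 peaks and 10.6 points, each with an exact sign-flip p of 0.5, below which 2 pairs cannot go. A reciprocal overlap of 50% and placing peaks by any overlap moved none of the counts by over 1.5 times. The setting without SNHG14 was chosen after seeing the data.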

Other observations

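Some coding genes that overlap a host gene had peaks where the host gene had none. SNHG3 had no peak, while RCC1, a chromatin-bound exchange factor whose span covers most of SNHG3, had plus-strand peaks beyond it, 7 and 6 in control and 2 and 5 in knockdown. SNHG4 had no peak, while MATR3, a nuclear matrix protein gene that starts at the same base, had 6 and 6 further plus-strand peaks in control and 3 and 3 in knockdown. SNHG7 had no peak, while DIPK1B, a plus-strand gene that overlaps it, had 1 plus-strand peak beyond it in each list. The whole lists held a mean of 46518.5 peaks in control and 43538.5 in knockdown. These genes were not chosen in advance, and their counts were not tested. Beyond the end of EPB41L4A-AS1, 1319 bp downstream on its strand, a locus at chr5:112163153-112164044 was in all 4 lists, with folds of 3.998, 3.83, 3.77 and 2.79, and it lies on the opposite strand of EPB41L4A. SNHG5 had a similar downstream locus at chr6:85676704-85676966, 183 bp beyond its end, with folds of 2.33 and 1.93 in control, none in knockdown replicate 1 and 1.84 in knockdown replicate 2. These loci lie outside the annotated spans and are in no count of the report.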
